A study of Mus musculus with 12 samples.

Results

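The core circadian clock genes are the 2 activators Arntl and Clock and the repressors Per1, Per2, Per3, Cry1, Cry2, Nr1d1 and Nr1d2, together with a further activator, Npas2. They were taken by gene symbol from the list of 10 core clock genes. Of these, 9 had a probe set paired with that gene alone and were measured, 2 activators and 7 repressors, each by 1 probe set, among 19938 genes in all. Npas2 is not listed in the gene table used and was not analysed here.

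Liver RNA was measured on 12 Affymetrix arrays. The mice were of the 129Sv strain, 12 weeks of age, and either wild type for SIRT3 (SIRT3WT) or without it (SIRT3KO). SIRT3 is a deacetylase of the mitochondrion. Wild-type and knockout mice ate either a standard diet or, from weaning, a Western diet high in fat (42% fat), which gives 4 groups of 3 arrays. All mice, the controls included, had been fasted for 24 h when their livers were taken. The labels give neither the clock time of killing nor the cells in which SIRT3 was deleted. They number the replicates without saying how these were obtained, so p-values measure the spread between these samples, which may be technical.

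The mammalian clock is a loop of transcription that runs with a period of about a day in nearly every cell. ARNTL (also called BMAL1) pairs with CLOCK or NPAS2 and switches on genes that carry E-boxes, among them the Per, Cry and Nr1d genes. PER and CRY proteins then block that pair, while the nuclear receptors NR1D1 and NR1D2 (REV-ERB alpha and beta) repress Arntl through ROR response elements (ROREs). In liver, transcripts of Arntl and of the Nr1d and Per genes therefore peak at nearly opposite times, and feeding time is a strong cue for the hepatic clock.

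The promoters of 6 members are shown because they hold, or lack, the elements through which the loop is thought to run. Each is a RefSeq window (GRCm38.p6) from 250 bases before an annotated start to 50 bases from the start on, printed 5′ to 3′ on the strand of the gene. Capitals mark matches, on either strand, to the E-box CACGTG, the related E-prime box CACGTT, which reads AACGTG on the other strand, the D-box TTATGTAA and the RORE core TAGGTNA, where N is any base.
Arntl, chr7:113207261-113207560, plus strand: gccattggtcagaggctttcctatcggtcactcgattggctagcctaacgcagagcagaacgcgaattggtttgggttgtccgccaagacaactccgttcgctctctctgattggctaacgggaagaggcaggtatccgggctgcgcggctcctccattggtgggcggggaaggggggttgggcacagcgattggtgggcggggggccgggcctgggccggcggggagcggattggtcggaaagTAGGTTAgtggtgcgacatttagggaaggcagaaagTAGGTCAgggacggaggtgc
Per1, chr11:69098699-69098998, plus strand: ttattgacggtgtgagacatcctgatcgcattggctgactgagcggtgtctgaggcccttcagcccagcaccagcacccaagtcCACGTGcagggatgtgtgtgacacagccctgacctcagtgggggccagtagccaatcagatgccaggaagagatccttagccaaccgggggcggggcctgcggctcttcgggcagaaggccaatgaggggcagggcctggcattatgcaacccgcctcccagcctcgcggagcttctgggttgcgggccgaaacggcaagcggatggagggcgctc
Per3, chr4:151044616-151044915, minus strand: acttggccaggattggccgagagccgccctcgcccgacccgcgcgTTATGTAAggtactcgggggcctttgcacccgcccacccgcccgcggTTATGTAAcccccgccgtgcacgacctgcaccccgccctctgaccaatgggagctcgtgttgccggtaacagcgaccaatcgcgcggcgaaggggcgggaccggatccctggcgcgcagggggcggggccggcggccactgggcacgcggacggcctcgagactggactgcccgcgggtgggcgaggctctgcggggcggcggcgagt
Cry1, chr10:85185005-85185304, minus strand: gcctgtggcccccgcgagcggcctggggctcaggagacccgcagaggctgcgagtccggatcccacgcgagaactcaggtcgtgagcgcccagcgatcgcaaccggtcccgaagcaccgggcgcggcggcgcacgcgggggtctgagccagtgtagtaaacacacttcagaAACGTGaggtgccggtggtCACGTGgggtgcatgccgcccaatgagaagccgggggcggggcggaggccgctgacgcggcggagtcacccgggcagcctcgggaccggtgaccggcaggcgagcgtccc
Cry2, chr2:92434020-92434319, minus strand: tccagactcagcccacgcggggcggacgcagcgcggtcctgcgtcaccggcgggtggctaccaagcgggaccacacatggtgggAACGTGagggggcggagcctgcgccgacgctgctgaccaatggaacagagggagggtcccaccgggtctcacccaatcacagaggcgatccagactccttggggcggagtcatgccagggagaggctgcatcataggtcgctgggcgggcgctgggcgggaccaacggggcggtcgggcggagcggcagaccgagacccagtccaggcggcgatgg
Nr1d2, chr14:18239057-18239356, minus strand: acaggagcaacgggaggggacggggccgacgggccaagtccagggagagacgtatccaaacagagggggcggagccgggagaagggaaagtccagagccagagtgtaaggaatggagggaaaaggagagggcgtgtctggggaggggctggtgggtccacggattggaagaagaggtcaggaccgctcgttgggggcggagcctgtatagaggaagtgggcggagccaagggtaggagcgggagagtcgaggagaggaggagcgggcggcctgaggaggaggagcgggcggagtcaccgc

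The Arntl window, that of the downstream one of its 2 annotated starts, held 2 RORE cores. Their first bases lay at positions -6 and 31, counted without a 0 from the start as position 1, and the core at 31 is the full TAGGTCA. Of 32851 promoter windows of the same length, 8.29% held TAGGTNA and 2.61% held TAGGTCA, which is also counted in the first share. Per3 held 2 D-boxes, at positions -205 and -158, and 0.938% of all windows held one. D-boxes are read by DBP, TEF and HLF and by their opponent NFIL3. Per1 and Cry1 each held an E-box, at positions -166 and -60, and 7.15% of windows held one. Cry1, Cry2 and Nr1d1 each held an E-prime box, at -79, -166 and -28, found in 4.68%. The windows of Clock, Npas2 and Nr1d2, and that of the other annotated Per1 start, matched none of these letters, and Per2 had no entry in the table. In all, 13 windows of 9 members were searched. A match is a string of letters and does not show that a factor binds there.

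**Figure D1:**
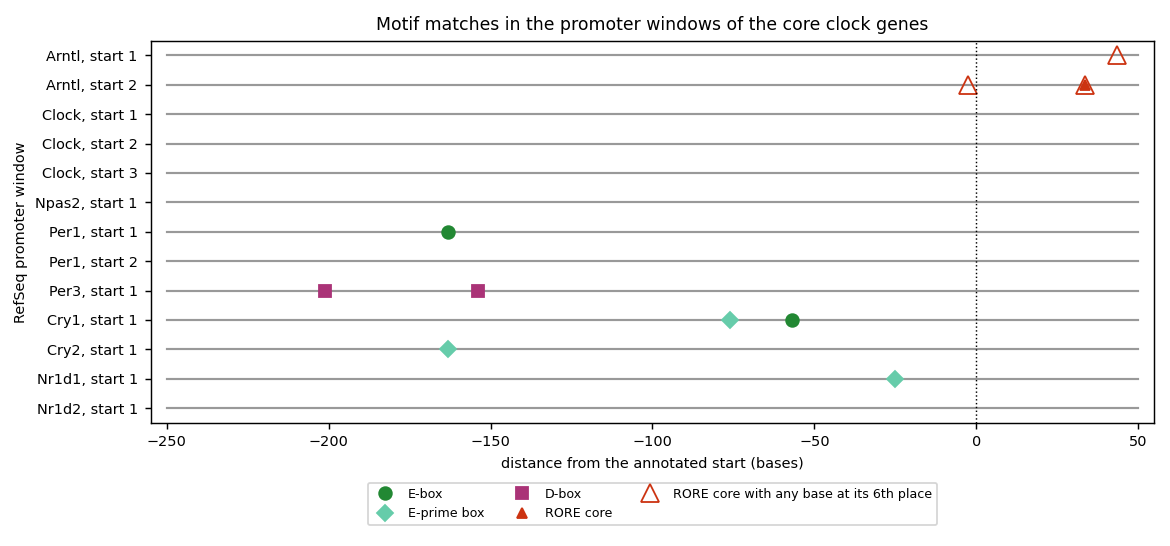
Matches to 4 kinds of clock element in the RefSeq promoter windows of the core clock genes, by distance in bases from the annotated start (dotted line); each grey line is a window and each marker a match. The D-boxes lie in Per3 and the RORE cores in Arntl, and the small filled triangle inside an open one marks the full core TAGGTCA.

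Expression is given on the log2 scale of the deposited values, made with RMA, which corrects background and brings the arrays of a run to a common distribution. A difference of 1 is a doubling. Differences come from a limma fit over all 19938 genes and 12 arrays, and a difference passed the test, and its gene is said to be called, where its p after Benjamini-Hochberg adjustment for all of them was under 0.05. The files bear signs that each diet was normalized in a run of its own. For instance, 335 probe sets have values on all 6 high-fat arrays and on no standard-diet array. Pairs of arrays shared a median of 20 exactly equal values within the standard diet, 7 within the high-fat diet and 0 across the diets. Genotypes would then be compared within a run, whereas each comparison of diets would lie across runs and cannot be told apart from a difference between them. In whole liver, fewer cells of a type and less RNA per cell cannot be told apart either. Measured hepatocyte markers (9 of 10) had a mean level of 13.19 to 13.43 on the 12 arrays. The array medians were 6.34 to 6.47. The targeted gene, Sirt3, differed between knockout and wild type by -0.14 on the standard diet and -0.42 on the high-fat diet (limma adjusted p = 0.66 and 1). Its knockout arrays read 8.83 to 8.95 and 8.49 to 8.92 on these diets and its wild-type arrays 8.97 to 9.13 and 9.13 to 9.29, without overlap, and where its probes lie relative to the deleted part is not given in the sources used here.

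Between the diets the activator Arntl and those repressors that passed the test changed in opposite directions. The time of killing is not given for either diet, so a difference in it was not tested and cannot be told apart from one of diet. Arntl was lower by more than 2-fold on the high-fat diet in both genotypes, while Per3 and Cry2 were higher in both, and Per2 and Nr1d2 were called higher in the knockout. Clock, Per1 and Cry1 passed in neither genotype. In the wild type 3 of 9 members were called, 2 higher and 1 lower, where 5.99% of all genes were called (4.3% higher and 1.69% lower). In the knockout 5 of 9 were called, 4 higher and 1 lower, against 5.11% of all genes (2.45% higher and 2.66% lower). The median difference over the 7 repressors was 0.56 in the wild type and 0.66 in the knockout, and over all genes 0.04 and -0.01.

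**Figure D2:**
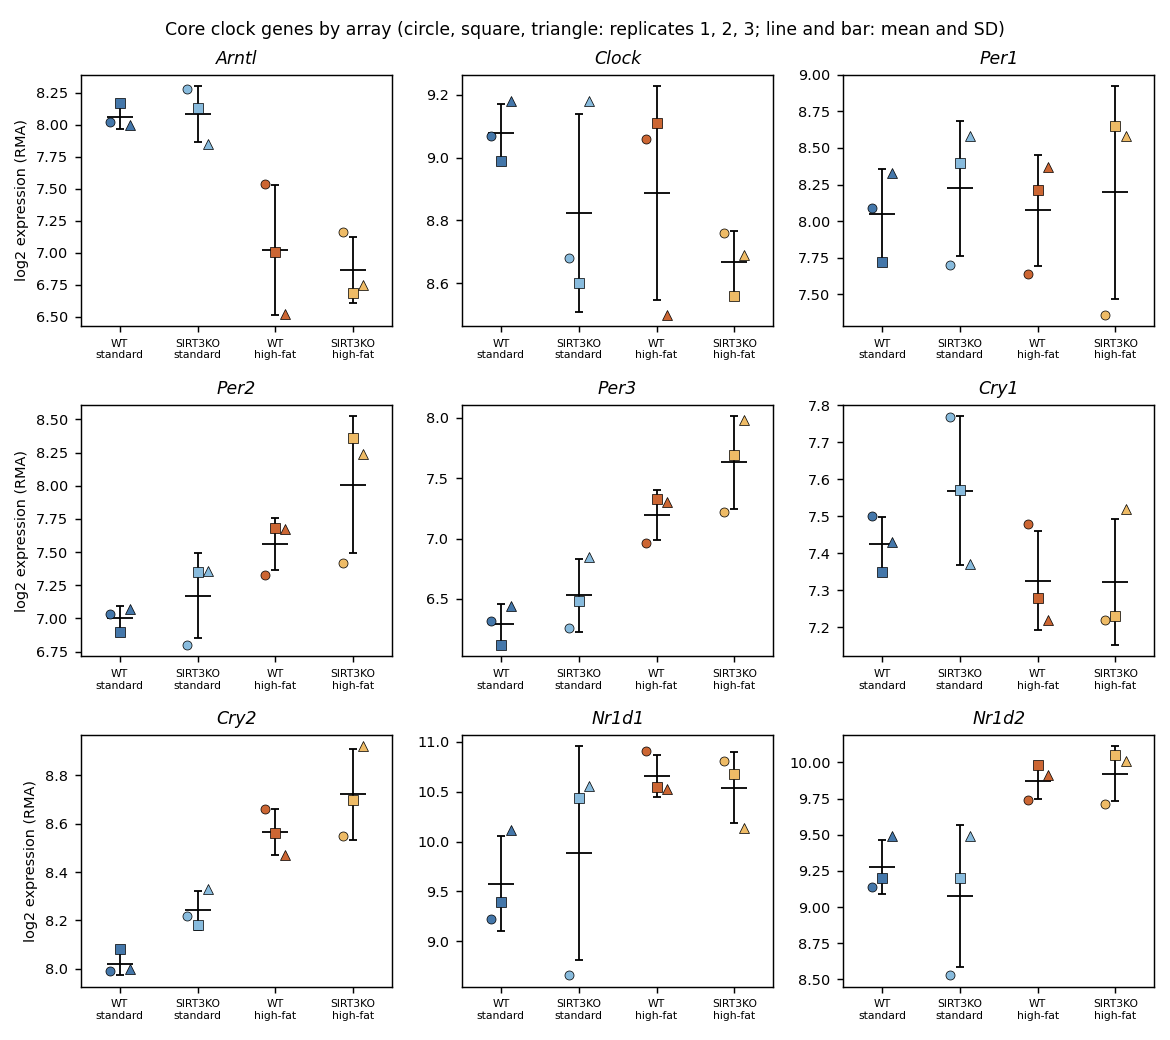
Log2 expression of the 9 core clock genes on each array in the 4 groups (WT is wild type, SIRT3KO knockout); symbols are replicates, the short line is the group mean and the bar its SD (n = 3). Arntl lies between 6.52 and 7.54 on the 6 high-fat arrays and between 7.85 and 8.28 on the 6 standard-diet arrays, and Per3 and Cry2 are displaced the other way.

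Arntl encodes the activator without which the loop does not run. Its level was 8.02, 8.17 and 8.00 on the wild-type standard-diet arrays and 8.28, 8.13 and 7.85 on those of the knockout. High-fat arrays read 7.54, 7.01 and 6.52 in the wild type and 7.16, 6.69 and 6.75 in the knockout. Every high-fat array thus lay below every standard-diet array, and the genotypes overlapped on both diets. Arntl fell 2.06-fold in the wild type (-1.04, SE 0.201, limma adjusted p = 0.00948). It fell 2.33-fold in the knockout (-1.22, with the same SE, limma adjusted p = 0.00453). Both calls held when any single array was left out, with differences from -1.30 to -0.79 in the wild type and from -1.37 to -1.13 in the knockout. The group means ran from 8.09 (SD 0.217, n = 3) in the knockout and 8.06 (SD 0.0939) in the wild type on the standard diet to 7.02 (SD 0.507) in the wild type and 6.87 (SD 0.259) in the knockout on the high-fat diet. Within each diet the 2 means lay closer than the spread of the arrays.

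Clock, whose product is the DNA-binding partner of ARNTL, did not pass the test between the diets. On the standard diet it stood at 9.07, 8.99 and 9.18 in the wild type and 8.68, 8.60 and 9.18 in the knockout. The high-fat levels were 9.06, 9.11 and 8.50 in the wild type and 8.76, 8.56 and 8.69 in the knockout. The diets overlapped in each genotype, and the diet differences were -0.19 (95% interval -0.54 to 0.16) and -0.15 (95% interval -0.50 to 0.19). In liver, Clock transcripts are known to cycle far less than those of Arntl.

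Among the period genes, which encode the proteins that carry CRY into the nucleus and delay the loop, Per3 moved most between the diets. Standard-diet levels were 6.32, 6.12 and 6.44 in the wild type and 6.26, 6.48 and 6.85 in the knockout. High-fat levels were 6.96, 7.33 and 7.30 in the wild type and 7.22, 7.69 and 7.98 in the knockout. Every high-fat array lay above every standard-diet array. Per3 rose 1.87-fold in the wild type (0.90, SE 0.184, limma adjusted p = 0.0131) and 2.14-fold in the knockout (1.10, SE 0.184, limma adjusted p = 0.00486). The wild-type call ended without wild-type standard-diet replicate 2, the lowest array (0.81, limma adjusted p = 0.0597).

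Per2 on the standard diet stood at 7.03, 6.90 and 7.07 in the wild type and 6.80, 7.35 and 7.36 in the knockout. With the high-fat diet it stood at 7.33, 7.68 and 7.67 in the wild type and 7.42, 8.36 and 8.24 in the knockout. In each genotype the high-fat arrays lay above the standard-diet arrays, with knockout replicate 1 the lowest of its group on both diets. Per2 rose 1.79-fold in the knockout (0.84, SE 0.209, limma adjusted p = 0.0345). Its wild-type difference did not pass (0.56, SE 0.209, limma adjusted p = 0.129). The knockout call was the least stable of the 5, and ended when any of 5 single arrays was left out: wild-type standard-diet replicate 1 (limma adjusted p = 0.0502), knockout standard-diet replicate 1 (0.118) or 2 (0.0562), or knockout high-fat replicate 2 (0.144) or 3 (0.122). The wild-type comparison passed without knockout high-fat replicate 1 (0.0387). In a fit of the compared groups only, the wild-type comparison passed (limma adjusted p = 0.0202) and the knockout call ended (0.106).

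Per1, which responds to glucocorticoids and other acute signals as well as to the clock, had a wide spread within each group and close means on both diets. The standard-diet arrays read 8.09, 7.72 and 8.33 in the wild type and 7.70, 8.40 and 8.58 in the knockout. The high-fat arrays read 7.64, 8.21 and 8.37 in the wild type and 7.36, 8.65 and 8.58 in the knockout. The knockout high-fat arrays ranged from 7.36 to 8.65. The diet differences were 0.03 (95% interval -0.64 to 0.69) and -0.03 (95% interval -0.69 to 0.63).

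Of the cryptochromes, which directly inhibit the ARNTL and CLOCK pair, Cry2 was called in both genotypes and Cry1 in neither. Cry2 levels on the standard diet were 7.99, 8.08 and 8.00 in the wild type and 8.22, 8.18 and 8.33 in the knockout. Those on the high-fat diet were 8.66, 8.56 and 8.47 in the wild type and 8.55, 8.70 and 8.92 in the knockout. Its arrays were close together, the diets did not overlap, and the standard-diet knockout lay wholly above the standard-diet wild type. Cry2 rose 1.46-fold in the wild type (0.54, SE 0.0998, limma adjusted p = 0.00726) and 1.40-fold in the knockout (0.48, SE 0.0998, limma adjusted p = 0.0143). The knockout call ended without knockout standard-diet replicate 2 (limma adjusted p = 0.0545) or without replicate 2 (0.051) or 3 (0.0571) of the high-fat knockout. A fit of the compared groups only ended it too (limma adjusted p = 0.0682).

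Cry1, whose transcript is known to peak later than that of the other repressors and which REV-ERB proteins repress as they do Arntl, had standard-diet levels of 7.50, 7.35 and 7.43 in the wild type and 7.77, 7.57 and 7.37 in the knockout. Its high-fat levels were 7.48, 7.28 and 7.22 in the wild type and 7.22, 7.23 and 7.52 in the knockout. The groups overlapped. The diet differences were -0.10 (95% interval -0.35 to 0.15) and -0.25 (95% interval -0.50 to 0.01), and neither passed (limma adjusted p = 0.667 and 0.244).

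Nr1d1, the REV-ERB alpha receptor that represses Arntl, had the largest difference between the diets of the 7 repressors in the wild type, and the largest SE of the 9 members. Levels on the standard diet spread widely, at 9.22, 9.39 and 10.12 in the wild type and 8.66, 10.44 and 10.56 in the knockout. Levels on the high-fat diet were 10.91, 10.55 and 10.53 in the wild type and 10.81, 10.68 and 10.14 in the knockout. In the wild type the diets did not overlap, whereas in the knockout 2 standard-diet arrays lay above the lowest high-fat array. Neither difference passed, at 1.09 in the wild type (SE 0.382, limma adjusted p = 0.106) and 0.66 in the knockout (same SE, limma adjusted p = 0.341). Leaving out knockout standard-diet replicate 1 took the knockout difference to 0.04 (limma adjusted p = 0.949) and the wild-type comparison, in which that array enters the variance alone, past the threshold (limma adjusted p = 0.00929). The wild-type difference also passed with array weights (limma adjusted p = 0.0165) or in a fit of the compared groups only (0.0144).

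Its paralogue Nr1d2 was steadier. Its standard-diet arrays read 9.14, 9.20 and 9.49 in the wild type and 8.53, 9.20 and 9.49 in the knockout. Its high-fat arrays read 9.74, 9.98 and 9.91 in the wild type and 9.71, 10.05 and 10.01 in the knockout. Every high-fat array lay above every standard-diet array. Nr1d2 rose 1.80-fold in the knockout (0.85, SE 0.186, limma adjusted p = 0.0192; 0.57 without knockout standard-diet replicate 1, limma adjusted p = 0.0425). In the wild type it did not pass (0.60, same SE, limma adjusted p = 0.0734), and did without knockout standard-diet replicate 1 (0.0137) or 3 (0.0374). The wild-type difference also passed with array weights (limma adjusted p = 0.023), quantile normalization (0.0399), cyclic loess (0.0382) or a fit of the compared groups only (0.0135). The knockout call ended without high-fat replicate 2 (limma adjusted p = 0.0814) or 3 (0.0699) of that genotype. A fit of the compared groups only ended it too (limma adjusted p = 0.0749).

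**Figure D3:**
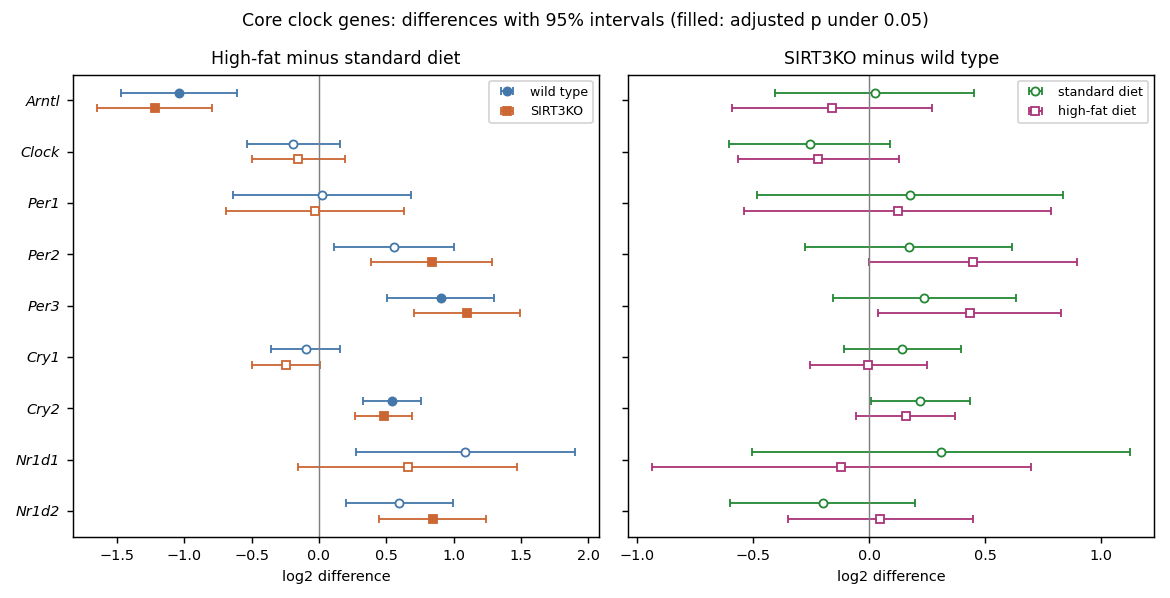
Differences in log2 expression of the core clock genes with 95% intervals, between the diets in each genotype (left) and between the genotypes on each diet (right); filled symbols passed the test. Arntl lies left of 0 between the diets at -1.04 and -1.22 and Per3 right of it at 0.90 and 1.10, and no difference between the genotypes passed.

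The groups did not overlap between the diets for 6 of 9 members in the wild type, against 30.3% of all genes, and for 5 of 9 in the knockout, against 23.8%. Averaged over the genotypes, 6 of 9 members were called, against 18% of all genes (10.3% higher and 7.69% lower). They were Arntl at -1.13 (limma adjusted p = 0.000198), Per3 at 1.00 (0.000235), Cry2 at 0.51 (0.000343), Nr1d2 at 0.72 (0.00231), Per2 at 0.70 (0.00578) and Nr1d1 at 0.87 (0.0372). The Nr1d1 call ended without standard-diet wild-type replicate 1 or 2, without any one high-fat wild-type array, or without high-fat knockout replicate 1 or 2, and with robust moderation (limma adjusted p = 0.123). An offset between the runs, with an SD of 0.214, was also added to the error. This SD was estimated from the diet differences that both genotypes shared over 1233 olfactory, vomeronasal and taste receptor genes. Any response of these genes to the diet would be counted in it. No member was then called in either genotype or on average, and the smallest limma adjusted p was that of Arntl averaged over the genotypes (0.303). All genes were given this SD, although the receptor genes behind it are dim.

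The deviation of each gene from its mean over the 12 arrays places every array on a scale from activators to repressors. The mean over the 7 repressors minus that over Arntl and Clock lay between -0.87 and -0.23 on the standard-diet arrays and between -0.01 and 1.04 on the high-fat arrays. Knockout standard-diet replicates 2 (-0.23) and 3 (-0.25) were nearest to the high-fat arrays, and high-fat wild-type replicate 1 (-0.01) was nearest to the standard diet. The order of diets in this score follows from the calls above and adds no test.

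Between the genotypes no member was called on either diet. On the standard diet limma called 0 of 9 members, against 0.00502% of all genes. At an unadjusted p under 0.05 stood 1 member, against 9.73% of all genes. That member was Cry2 (0.22, 95% interval 0.01 to 0.43, limma adjusted p = 0.507), the only one whose groups did not overlap, where 14.4% of all genes did not. The other differences ran from -0.26 for Clock to 0.31 for Nr1d1, and that of Nr1d1 ran from -0.03 without knockout replicate 3 to 0.93 without knockout replicate 1 (limma adjusted p = 0.774). The Arntl difference was 0.02 (95% interval -0.41 to 0.45).

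On the high-fat diet limma called 0 of 9 members, against 0% of all genes. At an unadjusted p under 0.05 stood 2 members, against 2.86% of all genes. These were Per3 (0.43, 95% interval 0.04 to 0.83) and Per2 (0.45, 95% interval 0.00011 to 0.90), each at limma adjusted p = 1. Their groups overlapped through knockout replicate 1, which stood at 7.22 for Per3 and 7.42 for Per2, within the wild-type range, while replicates 2 and 3 lay above all wild-type arrays. No member had groups that did not overlap, against 6.69% of all genes. Arntl differed by -0.16 (95% interval -0.59 to 0.27). Averaged over the diets 0 of 9 members were called, with Cry2 (0.19, limma adjusted p = 0.739) and Per3 (0.34, 0.739) at an unadjusted p under 0.05, where 6.64% of all genes stood, and 0% of all genes called.

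Whether the diet difference depends on the genotype was asked with the interaction, which takes the wild-type diet difference from that of the knockout. Limma called 0 of 9 members and 0% of all genes, and no member, against 4.73% of all genes, had an unadjusted p under 0.05. The values were -0.18 (95% interval -0.79 to 0.42) for Arntl, 0.20 (95% interval -0.36 to 0.75) for Per3 and 0.28 (95% interval -0.35 to 0.91) for Per2. For Nr1d1 the value was -0.43 (95% interval -1.58 to 0.72), and it ran from -1.05 without knockout standard-diet replicate 1 to -0.09 without replicate 3 of that group. Per2 and Nr1d2, called in the knockout and not in the wild type, are therefore not shown to differ between the genotypes.

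**Figure D4:**
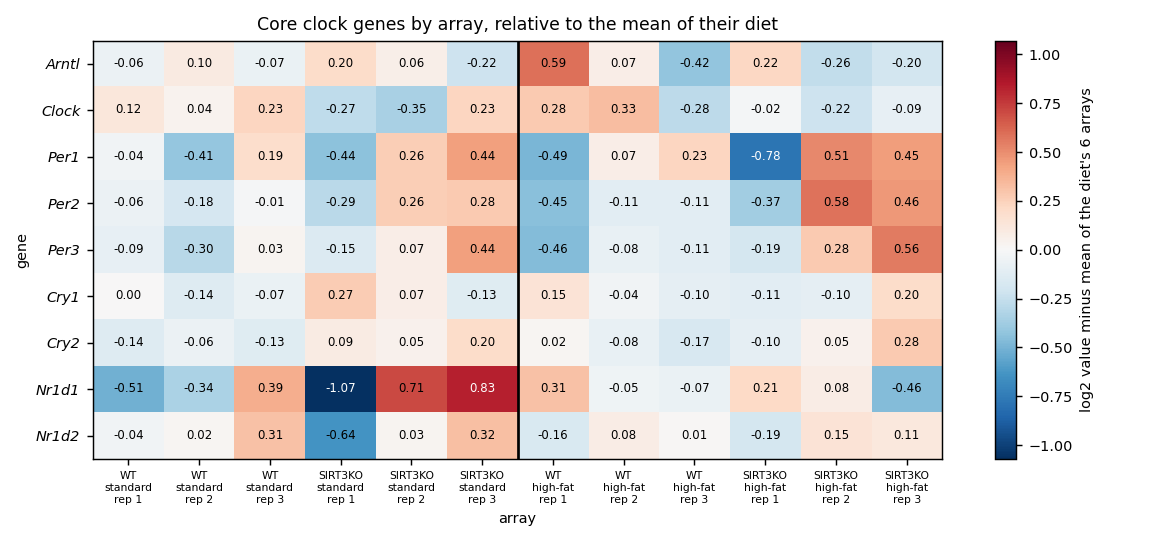
Log2 expression of each core clock gene (row) on each array (column) minus the mean of the 6 arrays of its diet, with the value in each cell; red is above and blue below that mean, and the vertical line parts the diets. Per1, Per2 and Per3 are all below the mean on 5 arrays and all above it on 4, and Nr1d1 ranges from -1.07 to 0.83 on the standard diet.

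Arrays of one group differed more for most core clock genes than for the median gene. The residual SD of the fit was 0.62 for Nr1d1, 0.496 for Per1, 0.323 for Per2 and 0.308 for Arntl, against a median of 0.14 over all genes. That of Nr1d1 exceeded the value of 99.8% of genes, and that of Per1 99.5%. Cry1 (0.153) and Cry2 (0.116) lay near or below the median gene. The members had mean levels of 6.91 to 10.2, against a median of 6.7 over all genes, and genes of like level were not compared. Within the diets the period genes often lay on the same side of their means. Per1, Per2 and Per3 were all below the mean of their diet on replicate 1 of every group and on wild-type standard-diet replicate 2. All 3 were above it on replicates 2 and 3 of both knockout groups.

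On the array with the lowest REV-ERB levels, knockout standard-diet replicate 1, Nr1d1 stood at -1.07 and Nr1d2 at -0.64 from the mean of the diet. The same array had a mean level of 10.85 over 10 acute-phase genes, against 8.21 to 8.47 on the other 5 standard-diet arrays. Over 8 immediate early genes it had 8.52 against 7.20 to 7.46, and over 7 glucocorticoid targets 10.93 against 9.93 to 10.32. Their part in the clock levels of this array was not tested. High-fat knockout replicate 1, with the lowest Per1 of all arrays, had an acute-phase mean of 8.63, within the 8.40 to 9.19 of the other high-fat arrays. Its immediate early genes stood at 7.61, above the 7.15 to 7.39 of those arrays. Its glucocorticoid targets stood at 9.54, the lowest of the 12 arrays, and the part of these lists in its clock levels was not tested.

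Arntl was set against each other member over the 6 arrays of each diet, 16 relations in all, with exact permutation tests. Against Per1 the Pearson r was -0.82 (exact p = 0.0486, adjusted p = 0.189) and the Spearman rho -0.83 (exact p = 0.0583, adjusted p = 0.187) on the standard diet. The high-fat arrays gave r -0.80 (exact p = 0.0611, adjusted p = 0.189) and rho -0.77 (exact p = 0.103, adjusted p = 0.235). Without the 2 arrays farthest from the median of Arntl, r was -0.47 on the standard diet and -0.94 on the high-fat diet. For Per2, Per3 and Nr1d2, r lay between -0.83 and -0.69 on the standard diet and between -0.73 and -0.67 on the high-fat diet. For Clock r was -0.78 and 0.80, and for Nr1d1 -0.69 and 0.65, so that both had opposite signs on the 2 diets. For Cry1 r was 0.68 on the standard diet and 0.37 on the high-fat diet, and for Cry2 -0.12 and -0.04. These became -0.158 and -0.446 for Cry1, and 0.765 and -0.768 for Cry2, without the 2 farthest arrays. Without the 2 farthest arrays, standard-diet r was 0.04 for Per2, 0.06 for Nr1d1, -0.48 for Per3, -0.47 for Nr1d2 and -0.63 for Clock, and high-fat r was -0.999 for Per2, -0.90 for Per3, -0.86 for Nr1d2, 0.59 for Clock and 0.54 for Nr1d1. No relation passed after adjustment over the 16, and each diet holds both genotypes.

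Genes whose pattern was most like that of Arntl were sought among 9510 genes of above-median level, after the mean of each diet had been subtracted, over the 12 arrays. The core members were left out, as were genes with names of predicted genes, clones, small RNAs, or olfactory or vomeronasal receptors. The highest Pearson r belonged to Ext2, of heparan sulfate synthesis (0.93), Foxp4, a forkhead factor (0.89), the tight junction gene Cldn1 (0.88), the interleukin signalling kinase Irak2 (0.87) and Cnksr3 (0.85). The lowest belonged to Clec1b, a C-type lectin receptor (-0.93), the transcription factor Klf13 (-0.91), the fatty acid desaturase Fads2 (-0.90), the survival gene Mcl1 (-0.89) and the liver factor Cebpb (-0.89). On the same measure the clock members stood at -0.78 for Per1, -0.69 for Per2, -0.68 for Per3, -0.55 for Nr1d2, -0.06 for Cry2 and -0.04 for Nr1d1, and at 0.33 for Clock and 0.42 for Cry1. These values describe the 12 arrays and carry no test.

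Beyond the core members, 22 further clock genes were listed, of which 19 were measured. In the wild type 4 of 19 were called, all higher on the high-fat diet, against 4.3% of all genes called higher. The knockout had 3, also all higher, against 2.45% of all genes. Their median diet differences were 0.11 and 0.16. Bhlhe41, an E-box repressor, rose from 5.34, 5.38 and 5.29 to 6.52, 6.59 and 6.91 in the wild type (limma adjusted p = 1.55e-05). In the knockout it rose from 5.44, 5.46 and 5.58 to 6.81, 6.80 and 6.66 (limma adjusted p = 3.08e-05), and it had the smallest p of all clock genes. Dbp, the D-box activator switched on by ARNTL and CLOCK, rose 3.21-fold (limma adjusted p = 0.00926) and 3.47-fold (limma adjusted p = 0.00659). Its relative Tef rose 1.69-fold (limma adjusted p = 0.0342) and 1.94-fold (limma adjusted p = 0.0125). The Bhlhe41 and Dbp calls held without any single array. The Tef call ended in the wild type without any 1 of the 6 wild-type arrays, and in the knockout without high-fat replicate 2 or 3 of that genotype. With median centring of the arrays Tef was not called in the wild type, nor in the knockout when only the compared groups were fitted.

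The ubiquitin ligase gene Fbxl21 was called in the wild type (0.41, limma adjusted p = 0.0351) and stood at 0.26 in the knockout (0.163), at levels of 5.38 to 6.09. Its call ended without any 1 of 5 wild-type arrays, all but high-fat replicate 1, and with median centring, quantile normalization, cyclic loess or a fit of the compared groups only. It also ended without knockout standard-diet replicate 1 and high-fat wild-type replicate 3 together. Bhlhe40 was called on average over the genotypes (0.66, limma adjusted p = 0.0238). That call ended with robust moderation and without any 1 of 7 arrays, namely standard-diet replicates 1 and 2 of both genotypes, high-fat wild-type replicate 3 and high-fat knockout replicates 2 and 3. Nor was Bhlhe40 called without both knockout standard-diet replicate 1 and high-fat wild-type replicate 3. Named for their roles with their values known, Hlf, a further D-box activator, stood at 8.24 to 8.88 on the 12 arrays, and Rora, which activates Arntl through the ROREs that REV-ERB proteins occupy, at 8.82 to 9.29. Both had overlapping diets. The residual SD within groups ran from 0.0463 for Csnk1e, a casein kinase gene, to 0.958 for Ciart, a repressor of the ARNTL and CLOCK pair read by the brighter of its 2 probe sets. With the offset between the runs added to the error, none of the 19 was called on either diet comparison. Between the genotypes limma called 0 of 19 on either diet, where 0.00502% and 0% of all genes were called. At an unadjusted p under 0.05 stood 3 of 19 on the standard diet, against 9.73% of all genes, and 0 on the high-fat diet, against 2.86%. The smallest p on the standard diet belonged to Bhlhe40 (0.72, limma adjusted p = 0.502), whose groups did not overlap.

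**Figure D5:**
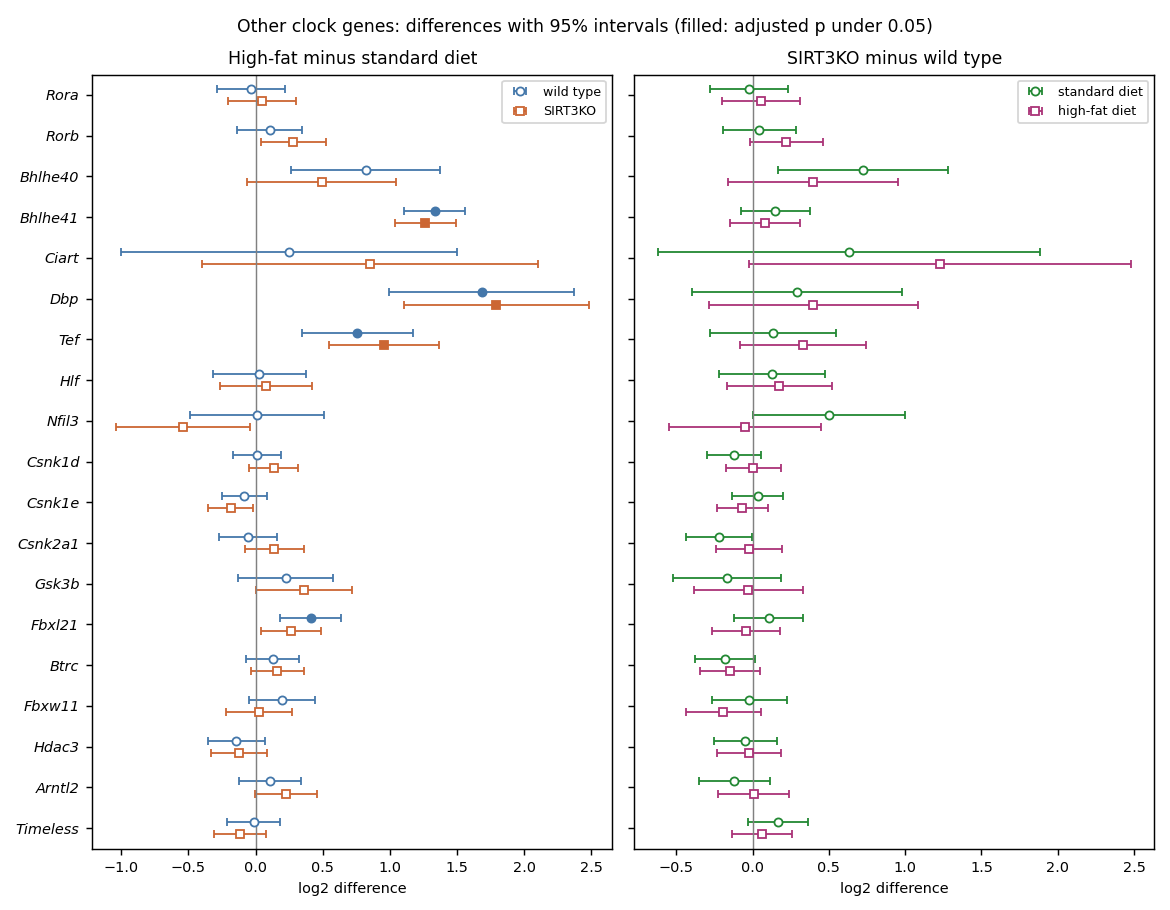
Differences in log2 expression of 19 further clock genes with 95% intervals, between the diets in each genotype (left) and between the genotypes on each diet (right); filled symbols passed the test. Bhlhe41, Dbp and Tef are filled in both genotypes and Fbxl21 in the wild type, and no difference between the genotypes is filled.

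Lists of fasting genes and of cell type markers were measured beside the clock genes. The mean level of 9 measured fasting genes was 11.10 to 11.25 on the standard-diet arrays and 10.49 to 10.88 on the high-fat arrays, with 2 of 9 called lower in the knockout, against 2.66% of all genes, and 0 in the wild type, against 1.69%. Lymphocyte markers (6 of 7 measured) had means of 4.91 to 5.11 and 5.05 to 5.39, with 3 called higher in the wild type, against 4.3% of all genes, and 0 in the knockout, against 2.45%. None of the measured hepatocyte, macrophage, stellate, bile duct and pancreas markers was called between the diets in either genotype, and 1 of 5 endothelial markers was called higher in each genotype, against the same shares of all genes. Averaged over the genotypes, 7.69% of all genes were called lower and 10.3% higher. Called lower were 3 of 9 fasting genes, 2 of 7 glucocorticoid targets, 1 of 9 hepatocyte markers and 1 of 5 bile duct markers. Called higher were 2 of 7 stellate, 1 of 5 endothelial and 3 of 6 lymphocyte markers, and no macrophage or pancreas marker was called. Glucocorticoid targets had median differences of -0.18 in the wild type and -0.52 in the knockout, with none called. The part of these lists in the clock differences was not tested.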

How the data were processed

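Values were deposited as log2 expression, with a column for each array. The authors obtained them by RMA in the Affymetrix Expression Console software, per the submitters' processing notes; version, options and genome build are not given in the sources used here. Nothing was normalized again for the main fit, and quantile normalization, median centring and cyclic loess were applied only as alternatives. Of 35557 probe sets, 21789 had 1 gene symbol in the platform table (21698 matched RefSeq by Entrez ID), 1621 had several and 12147 were not listed. For 999 genes with several probe sets the brightest was kept.

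The model had 1 mean per group and no block. It was fitted with limma 3.58.1 (R 4.3.3) to the 12 arrays together, variances being moderated by empirical Bayes around their trend with intensity. The fit was tested on simulated data with independent noise and no offset between runs, so that test does not cover such an offset. Residual degrees of freedom were 8, and 14.5 in the median after moderation. Intervals are 95% intervals from this fit. Named genes are the 10 listed members, the called genes among 22 other clock genes, and the 5 genes most like and the 5 most opposed to Arntl; Hlf, Rora, Csnk1e and Ciart fall outside this rule and were named after their values were seen. The members, lists and motifs were chosen with earlier results of these data known. Alternatives changed the moderation, weights, groups fitted, block, probe sets, dim-gene filter, scaling, threshold and arrays, or added the run offset. The number of arrays limits the precision.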

Additional observations from a re-analysis of the deposited data

How the results depend on the processing

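No called difference of a core clock gene changed sign under any alternative run, among 1512 recomputed member values, and 69 uncalled values did. The counts of members called between the genotypes and for the interaction stayed at 0 under every alternative. In the wild type the 3 members called between the diets became 5 with array weights, 6 in a fit of the compared groups only, 5 without both knockout standard-diet replicate 1 and high-fat wild-type replicate 3 and 0 with the run offset. Leaving out single arrays gave 2 to 5, with 2 without wild-type standard-diet replicate 2 and 5 without knockout standard-diet replicate 1. In the knockout the 5 called became 2 in a fit of the compared groups only and 0 with the run offset, and single arrays gave 2 to 5, with 2 without high-fat knockout replicate 2 or 3 and 3 without standard-diet knockout replicate 2. Averaged over the genotypes the 6 called became 0 with the run offset and 5 to 6 without single arrays. Apart from the added error in the offset and the arrays left out, the cause was not tested. With the replicate block 4 members were called in the wild type (Nr1d2 added, limma adjusted p = 0.024), 5 in the knockout and 6 on average. The labels do not say what arrays of the same number share, so the numbers were not taken as pairs. Of 18 same-numbered pairs of arrays 5 correlated above 0.1 in their deviations from the group means. Correlations ran from 0.05 to 0.237 for replicates 1, from -0.218 to 0.059 for replicates 2 and from -0.271 to 0.407 for replicates 3. Pairs of unlike number were not compared, so these values cannot decide whether the numbers are pairs.

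Over all genes, the 1194 calls between the diets in the wild type (858 higher, 336 lower) became 7 with the run offset, 3632 with array weights, 576 without dim genes and 2214 at a threshold of 0.1, and single arrays gave 389 to 1322. Quantile normalization gave 647 higher and 576 lower, cyclic loess 707 and 607, and median centring 425 and 618. In the knockout 1018 calls (488 and 530) became 5, 2016, 558 and 1926 in that order, 381 in a fit of the compared groups only, and 360 to 1286 without single arrays. On average 3582 calls (2049 and 1533) became 9 with the run offset and 2333 without dim genes, and median centring gave 1510 and 1988.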
